A study of Rattus norvegicus with 9 samples.

Results

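The 10 circadian clock genes Clock, Per1, Per2, Per3, Cry1, Nr1d1, Nr1d2, Bhlhe40, Dbp and Tef were followed in preparations of rat lung fibroblasts. The period was that in which the lung forms alveoli, and the preparations also carried macrophage markers. The genes were taken by name, as those with a probe set that the platform annotation assigns to that gene alone. A probe set is a group of probes on the array for one transcript. All 10 were found, among 14217 genes so represented. Together they had 19 such probe sets, and the brightest by mean log2 intensity over the 9 arrays stands for a gene. Single-colour Affymetrix arrays had been hybridised with RNA of adherent lung cells from untreated pups on postnatal day 2 (saccular stage, before septation), day 7 (septation under way) and day 21 (septation ended), 3 arrays per day. Septation is the growth of ridges that divide the air spaces. Each array held pooled cells of 5 pups (day 2) or 4 pups (days 7 and 21) from a single litter, and the 3 litters of a day were different. Cells were dispersed with trypsin and collagenase and kept if they stuck to plastic within 45 min in medium with serum. The labels used here name no strain, sex or hour at which pups were taken. Phase, the position of a clock within its daily cycle, was therefore not measured, and a difference between days cannot be told apart from a difference in the hour of collection.

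The circadian clock is a feedback loop of transcription that runs in most cells, fibroblasts included. CLOCK with BMAL1 activates the Per and Cry genes through a DNA element called the E-box, and the PER and CRY proteins then block that activation. The nuclear receptors NR1D1 and NR1D2 (REV-ERB alpha and beta) repress Bmal1, BHLHE40 competes for E-boxes, and DBP and TEF activate genes through a second element, the D-box. Per1, Per2 and Nr1d1 in cultured fibroblasts also respond to serum, and all cells here were plated in serum. Its part in these levels was not tested.

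Between days 7 and 21 Per2 and Nr1d1 had the largest changes of the 10, in opposite directions. Bhlhe40 rose and Per3 fell in the same interval, while between days 2 and 7 none of the 10 passed the test. The falls of Per2 and Per3 were called at the brighter probe set only, and Nr1d1 and Bhlhe40 each had a single probe set. The bases before the annotated start of the 3 genes that differed between days 21 and 2 are shown because these members carry the finding. They are RefSeq sequences of build GRCr8, read 5′ to 3′ on the gene's strand, with matches to searched motifs in capitals. Per2 is given at chr9:99497070-99497243 (minus strand), Nr1d1 at chr10:84231813-84232062 (minus strand) and Bhlhe40 at chr4:143174200-143174449 (plus strand).
Per2: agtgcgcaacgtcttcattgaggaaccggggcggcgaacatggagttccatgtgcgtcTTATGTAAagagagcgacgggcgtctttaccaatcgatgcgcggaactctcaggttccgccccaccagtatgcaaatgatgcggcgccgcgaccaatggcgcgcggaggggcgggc
Nr1d1: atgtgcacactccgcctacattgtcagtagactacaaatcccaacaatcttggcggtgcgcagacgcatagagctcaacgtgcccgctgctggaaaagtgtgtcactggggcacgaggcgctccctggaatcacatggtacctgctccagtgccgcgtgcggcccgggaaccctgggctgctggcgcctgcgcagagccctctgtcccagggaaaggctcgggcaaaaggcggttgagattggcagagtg
Bhlhe40: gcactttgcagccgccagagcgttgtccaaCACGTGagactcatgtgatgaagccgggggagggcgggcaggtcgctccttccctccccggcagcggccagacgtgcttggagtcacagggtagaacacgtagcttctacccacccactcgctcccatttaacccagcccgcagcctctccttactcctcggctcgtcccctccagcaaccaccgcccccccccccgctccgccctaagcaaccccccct

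The motifs searched on both strands, within the 250 bases before a start, were the E-box CACGTG, the D-box TTATGTAA and the nuclear receptor half-site AGGTCA. The Per2 stretch holds a D-box and the Bhlhe40 stretch an E-box, while the Nr1d1 stretch holds none of the 3 motifs. A second listed Nr1d1 start, within the gene, has an E-box before it. Of the 10 genes 9 were in the promoter table, with 11 starts. An E-box lay before a start of 3 of them (Nr1d1, Tef and Bhlhe40), a D-box before 1 (Per2) and a half-site before 1 (Nr1d2). Among all 33469 starts in the table the shares were 5.59% for the E-box, 0.828% for the D-box and 14.1% for the half-site. These shares are per start, while the counts above are per gene over any of its starts. A match describes these letters and says nothing of binding.

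Marker genes were read to see which cells the arrays held. The 15 fibroblast markers averaged log2 10.51 to 10.82 on day 2, 10.83 to 10.91 on day 7 and 10.03 to 10.42 on day 21, and none had a mean under log2 4.25. That level, the 25th percentile of the log2 values of all arrays, is called the low end here. The 20 macrophage markers averaged 9.32 to 9.57, 7.60 to 8.49 and 9.86 to 10.31 on the same days. All 20 were called higher on day 21 than on day 7 (limma adjusted p under 0.05), beside 13.7% of all genes. On day 7 against day 2, 14 were called lower, beside 4.41% of all genes. In litter 3 of day 21 the macrophage mean (10.31) exceeded the fibroblast mean (10.03). The 23 proliferation genes averaged 7.07 to 7.24, 7.43 to 7.47 and 5.46 to 5.77. Endothelial markers (10 genes) averaged 6.27 to 6.68, 6.91 to 7.13 and 5.52 to 5.97, and epithelial markers (12 genes) 6.57 to 6.88, 5.82 to 6.56 and 6.94 to 7.42. The 9 smooth muscle and pericyte markers averaged 7.33 to 7.79, 7.62 to 7.87 and 7.36 to 7.70. Granulocyte and mast cell genes (9) averaged 5.69 to 6.48, 4.65 to 5.29 and 6.26 to 7.93. The 11 lymphocyte markers averaged 4.19 to 5.14 over all arrays, with 5 of them below the low end. In such mixed samples fewer cells of a type and less RNA per cell cannot be told apart. The part of these other cells in the changes below was not tested. The macrophage mean was fitted as a covariate, but it did not overlap between days. That fit therefore cannot tell macrophage level apart from day. Arrays of a day correlated at 0.976 to 0.988 across probe sets, and median intensities were 37.9 to 50.4.

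**Figure D1:**
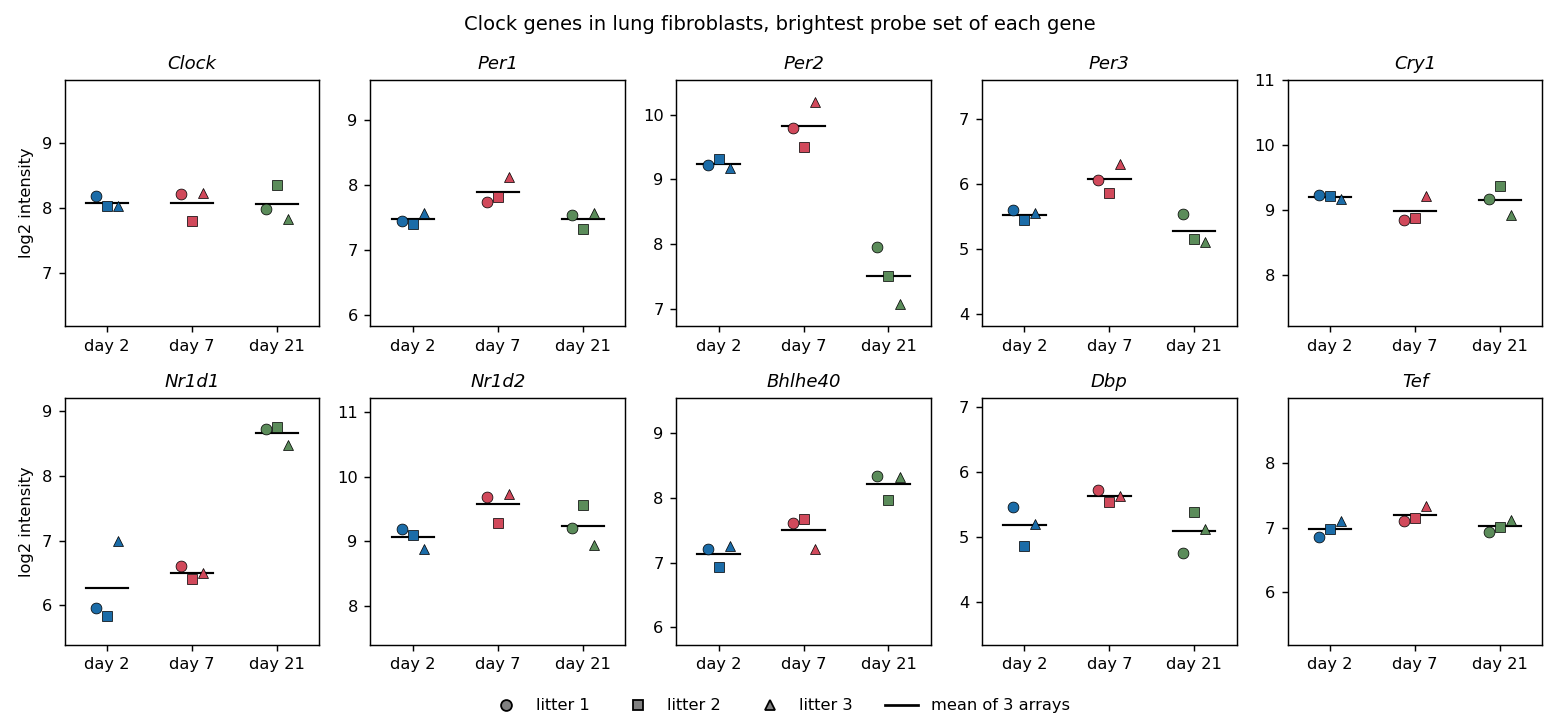
Log2 intensity (y axis, 3.8 log2 units in every panel) of the brightest probe set of each clock gene on the 9 arrays, by postnatal day (x axis). Symbols mark the litter and the black line the mean of 3 arrays. Per2 and Nr1d1 stand apart on day 21, and Nr1d1 of day 2 has litter 3 above litters 1 and 2.

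Clock encodes the activating partner of BMAL1. It was at log2 8.19, 8.03 and 8.03 on day 2, 8.22, 7.81 and 8.24 on day 7 and 7.98, 8.36 and 7.84 on day 21, in the order of litters 1, 2 and 3. The days overlapped throughout. Its change was 0.01 ± 0.18 (SE) on the log2 scale for day 7 against day 2, with a 95% interval of -0.39 to 0.40, and -0.03 ± 0.18 for day 21 against day 7, with an interval of -0.42 to 0.37 (n = 3 arrays per day here and below). These intervals give the precision of the brightest probe set with this number of arrays and are not limits of detection. The dimmest Clock probe set, at log2 3.43 to 5.33, gave -0.71 ± 0.33 (limma adjusted p = 0.24) for day 7 against day 2. It gave 0.55 ± 0.33 (adjusted p = 0.25) for day 21 against day 7. Both estimates lay outside those intervals, without passing. The other Clock probe sets gave 0.15 and -0.02 for day 7 against day 2, also without passing. For day 21 against day 7 they gave -0.24 and 0.06.

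Per2, of the repressing arm, was at log2 9.22, 9.31 and 9.17 on day 2, 9.79, 9.49 and 10.20 on day 7 and 7.96, 7.51 and 7.08 on day 21. The day 21 arrays lay below all others. Per2 fell 4.97-fold on day 21 against day 7 (log2 change -2.31 ± 0.23, limma adjusted p = 1.72e-05) and 3.29-fold against day 2 (-1.72 ± 0.23, adjusted p = 0.000418). A second, dimmer Per2 probe set passed in neither comparison. It was at 6.08, 6.34 and 6.50 on day 21 and 6.58, 6.57 and 6.36 on day 7 (log2 change -0.19, adjusted p = 0.423), and its day 21 litters ran in the opposite order. Against day 2, at 6.71, 6.67 and 6.94, it was lower without overlap (-0.47, adjusted p = 0.0645). The called falls rest on the brighter probe set.

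Per1, a paralog that responds early to outside signals, was at log2 7.44, 7.41 and 7.57 on day 2, 7.74, 7.81 and 8.12 on day 7 and 7.53, 7.33 and 7.57 on day 21. Day 7 was the highest day, with no overlap with either neighbour, but neither step passed the test (log2 change 0.42 ± 0.16, adjusted p = 0.127, for day 7 against day 2, and -0.41 ± 0.16, adjusted p = 0.0648, for day 21 against day 7). Days 21 and 2 differed by 0.01, with an interval of -0.33 to 0.35.

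Per3, the third Per gene, was at log2 5.60, 5.45 and 5.56 on day 2, 6.06, 5.87 and 6.31 on day 7 and 5.55, 5.16 and 5.11 on day 21. It fell 1.75-fold on day 21 against day 7 (log2 change -0.81 ± 0.17, limma adjusted p = 0.0033). Its other probe set lay at 2.94 to 3.58 on all arrays, below the low end, and was not called (-0.26, adjusted p = 0.279). Day 21 and day 2 did not separate for Per3 (-0.26 ± 0.17, adjusted p = 0.316). The day 7 values exceeded all day 2 values without passing (0.55 ± 0.17, adjusted p = 0.0727).

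Cry1, the PER partner, was at log2 9.23, 9.22 and 9.16 on day 2, 8.85, 8.88 and 9.22 on day 7 and 9.17, 9.37 and 8.93 on day 21. All days overlapped. Its changes were -0.22 ± 0.16 for day 7 against day 2 and 0.17 ± 0.16 for day 21 against day 7, with adjusted p = 0.508 and 0.491 by limma.

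Nr1d1 was at log2 5.95, 5.84 and 7.00 on day 2, 6.60, 6.41 and 6.50 on day 7 and 8.73, 8.75 and 8.48 on day 21. Every day 21 array exceeded every earlier one by more than the 1.16 log2 units between the day 2 litters. Nr1d1 rose 4.43-fold on day 21 against day 7 (log2 change 2.15 ± 0.26, limma adjusted p = 6.19e-05) and 5.24-fold against day 2 (2.39 ± 0.26, adjusted p = 9.11e-05). Day 7 against day 2 gave 0.24 ± 0.26 (adjusted p = 0.676). That estimate rests on litter 3 of day 2 and was 0.61 (adjusted p = 0.0622) without it.

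Nr1d2, its paralog, was at log2 9.20, 9.10 and 8.88 on day 2, 9.69, 9.29 and 9.73 on day 7 and 9.20, 9.57 and 8.94 on day 21. The days 7 and 21 overlapped, and no step passed (0.51 ± 0.19, adjusted p = 0.142, for day 7 against day 2 and -0.33 ± 0.19, adjusted p = 0.237, for day 21 against day 7). The other Nr1d2 probe sets changed by 0.15 and 0.43 in the later interval, also without passing. The dimmest of the 3 was higher on day 21 than on day 2 (0.65, adjusted p = 0.035), where the brightest gave 0.17 (adjusted p = 0.568).

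Bhlhe40 encodes a repressor that binds E-boxes. It was at log2 7.21, 6.93 and 7.26 on day 2, 7.62, 7.68 and 7.21 on day 7 and 8.34, 7.96 and 8.33 on day 21. Only day 21 stood clear of the other days. It rose 1.63-fold on day 21 against day 7 (log2 change 0.71 ± 0.18, limma adjusted p = 0.0103) and 2.11-fold against day 2 (1.08 ± 0.18, adjusted p = 0.00177). The change of day 7 against day 2 was 0.37 ± 0.18 (adjusted p = 0.27).

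Dbp and Tef carry clock output. Dbp was at log2 5.47, 4.86 and 5.20 on day 2, 5.73, 5.53 and 5.63 on day 7 and 4.75, 5.39 and 5.12 on day 21. The day 7 arrays were above all others, by margins that did not pass (0.45 ± 0.20, adjusted p = 0.208, against day 2, and -0.54 ± 0.20, adjusted p = 0.061, for day 21 against day 7). Tef was at log2 6.86, 6.97 and 7.11 on day 2, 7.10, 7.15 and 7.33 on day 7 and 6.93, 7.00 and 7.12 on day 21. Its changes were 0.21 ± 0.15 and -0.17 ± 0.15 for the successive intervals, and 0.04 for day 21 against day 2 with an interval of -0.28 to 0.36. Of the 2 further Tef probe sets the dimmer, at log2 4.41 to 4.94 and so near the low end, was lower on day 21 than on day 7 (-0.44, limma adjusted p = 0.026). The other gave -0.06 (adjusted p = 0.851).

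**Figure D2:**
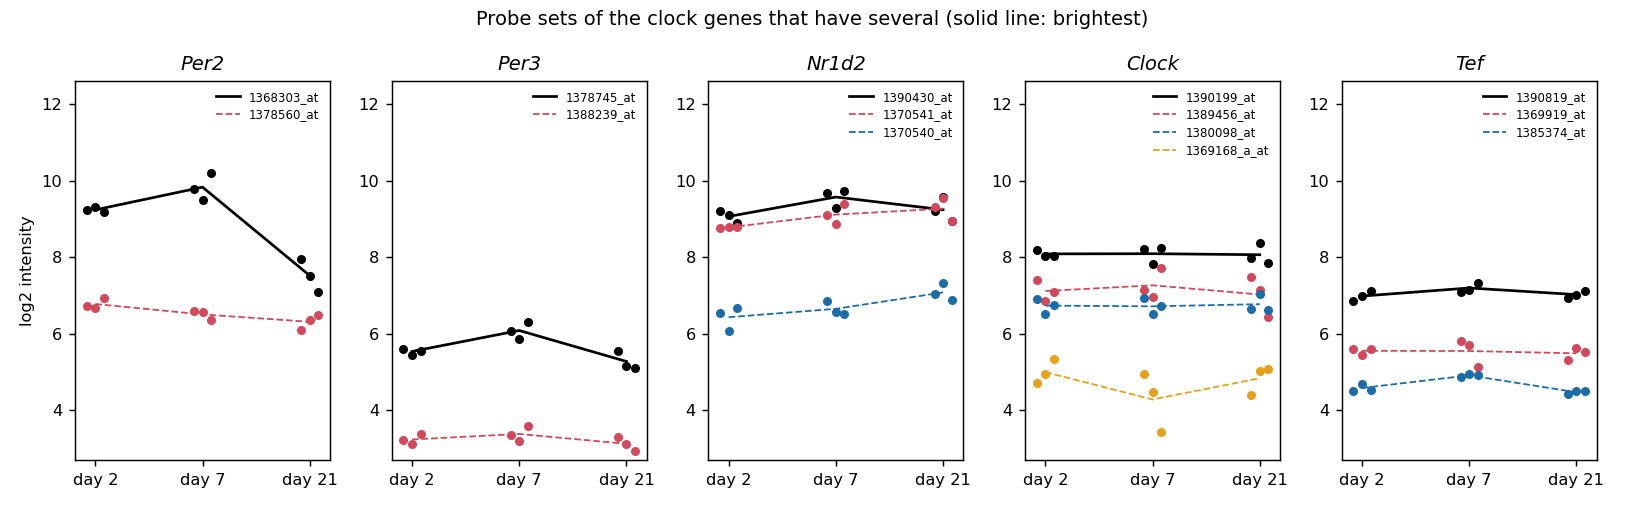
Log2 intensity (y axis) by postnatal day (x axis) for all probe sets of the 5 clock genes that have several. Points are arrays (litters 1 to 3 from left to right), lines join day means, and the solid black line is the brightest. For Per2 the brighter probe set drops on day 21 to 7.08 to 7.96, while the dimmer stays at 6.08 to 6.50.

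Set against all genes, the clock genes were called at shares near those of all genes in the later interval. On day 7 against day 2 limma called 0 of the 10, where 7.02% of all genes were higher and 4.41% lower. At an unadjusted p under 0.05, 5 were higher (Per1, Per2, Per3, Nr1d2 and Dbp) and 0 lower, beside 17.2% and 9.52% of all genes. With arrays centred on their median 0 of the 10 were, and those 5 had an unadjusted limma p of 0.059 to 0.158. Centring moved all genes too, with 41.5% of all called probe sets higher, against 61.5% as deposited. The share of all genes at that unadjusted p was not computed after centring, so this 0 is not a result about the clock genes. As deposited, the arrays of Per1, Per2, Per3, Nr1d2 and Dbp did not overlap, against 21.1% of all genes that were higher without overlap. The median log2 change was 0.39 over the members and 0.07 over all genes. On day 21 against day 7, 2 of the 10 were called higher (Nr1d1 and Bhlhe40) and 2 lower (Per2 and Per3), where 13.7% of all genes were higher and 24.4% lower. Without overlap of arrays were 2 higher and 4 lower members, the further ones being Per1 and Dbp, against 20.5% and 30.7% of all genes. The median change was -0.25 over the members and -0.01 over all genes. On day 21 against day 2, 2 members were higher and 1 lower (Per2), where 8.8% and 15.3% of all genes were. The same 2 and 1 had no overlap, against 18.5% and 24.5%. The 3 comparisons share arrays, so their counts are not independent of each other.

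**Figure D3:**
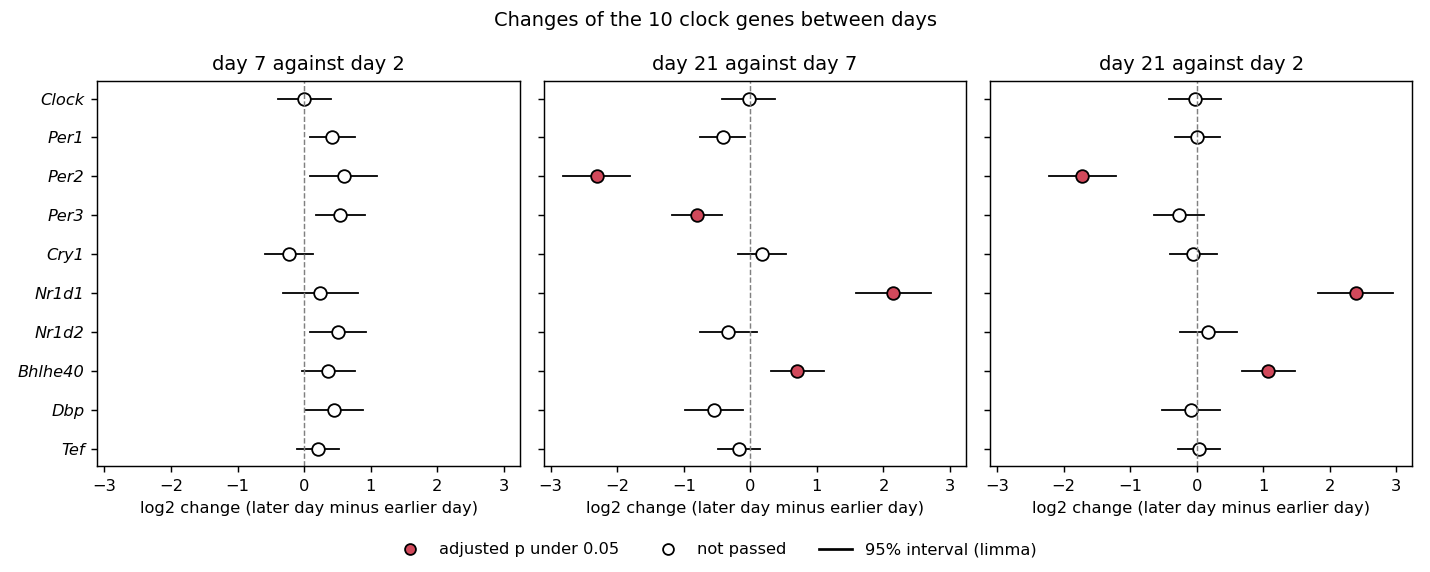
Log2 change (x axis, later day minus earlier day) of each clock gene (y axis) in the 3 comparisons, with 95% intervals from limma. Filled points passed at an adjusted p under 0.05. None is filled for day 7 against day 2, and Per2 (-2.31) and Nr1d1 (2.15) lie farthest from 0 for day 21 against day 7.

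Related genes, in pairs chosen after the data were seen, were compared within arrays, by an exact two-sided permutation test of the log2 difference of the pair on day 21 against day 7. With 3 arrays per day its smallest possible p is 0.1, so no pair could pass, and 6 pairs were compared. The difference of Nr1d1 and Nr1d2 shifted by 2.48 without overlap (exact p = 0.1, adjusted 0.12). The difference of Per2 and Per1 shifted by -1.90 and that of Per2 and Per3 by -1.50, each without overlap (exact p = 0.1, adjusted 0.12). Cry2 with Cry1 (-1.73) and Bhlhe40 with Bhlhe41 (-0.60) gave the same exact p. Tef with Dbp shifted by 0.37 with overlapping arrays (exact p = 0.3, adjusted 0.3).

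The rest of the clock pathway was read from lists of its activators, repressors, kinases and ubiquitin ligases, and outputs, with 29 genes measured besides the 10. On day 7 against day 2, 2 of the 29 rose and 5 fell, on day 21 against day 7, 7 rose and 2 fell, and on day 21 against day 2, 5 rose and 2 fell. Over all genes 7.02% were higher and 4.41% lower, 13.7% and 24.4%, and 8.8% and 15.3%, in the same order of comparisons. Their median changes were 0.08, 0.13 and 0.08, beside 0.07, -0.01 and 0.02 over all genes. Among 5 activators, Bmal1, the partner of CLOCK, was at log2 7.52, 7.31 and 7.53 on day 2, 6.95, 6.72 and 7.31 on day 7 and 8.01, 8.27 and 7.55 on day 21. It rose 1.93-fold on day 21 against day 7 (log2 change 0.95 ± 0.21, limma adjusted p = 0.00411), the interval in which Nr1d1 rose. Rora, an activator of Bmal1, was higher on day 21 than on day 2 (1.17 ± 0.37, adjusted p = 0.0449), from uneven litters at 8.95, 7.79 and 7.35. Npas2, which can stand in for CLOCK, did not pass in any comparison, nor did Bmal2 and Rorb.

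Of 5 further repressors, Cry2 was at log2 8.35, 8.25 and 8.54 on day 2, 9.03, 8.71 and 9.18 on day 7 and 7.44, 7.43 and 7.37 on day 21. It rose by 0.59 ± 0.16 on day 7 against day 2 (limma adjusted p = 0.0408) and fell 2.95-fold on day 21 against day 7 (-1.56 ± 0.16, adjusted p = 2.12e-05). The mean of the brighter Per2 probe set was also highest on day 7 and lowest on day 21, though its difference between days 7 and 2 did not pass (adjusted p = 0.15) and the dimmer one was highest on day 2. Bhlhe41, the paralog of Bhlhe40, fell 3.51-fold on day 7 against day 2 (-1.81 ± 0.28, adjusted p = 0.00312) and rose 2.48-fold on day 21 against day 7 (1.31 ± 0.28, adjusted p = 0.00317). Timeless, which in mammals also acts at replication forks, fell on day 21 against day 7 (limma adjusted p = 0.000233). Its day 21 mean, log2 3.60, lay below the low end, so no fold is given. In the same interval 20 of 23 proliferation genes fell, beside 24.4% of all genes. The part of the proliferation genes in the Timeless result was not tested. Nfil3, which encodes a repressor at D-boxes, rose on day 21 against day 2 (0.88 ± 0.25, adjusted p = 0.0306), and Tipin did not pass.

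Among the 11 kinases, ligases and other modifiers of clock proteins only Btrc, a ligase subunit that targets PER proteins, was called, and only on day 21 against day 7 (0.67 ± 0.16, limma adjusted p = 0.00665). The casein kinase genes Csnk1d and Csnk1e, whose products phosphorylate PER, changed by -0.0034 and 0.16 on day 7 against day 2 and by -0.30 and -0.32 on day 21 against day 7, without passing. Of 9 further outputs, Hlf, the third relative of Dbp and Tef, rose 2.17-fold on day 7 against day 2 (1.12 ± 0.18, adjusted p = 0.00382) and differed by 0.04 on day 21 against day 7 (adjusted p = 0.905). Wee1, which encodes a kinase that delays mitosis, rose on day 21 against day 2 (0.57 ± 0.16, adjusted p = 0.0287). Noct, a phosphatase of nicotinamide cofactors, Nampt, of their synthesis, Por, the electron donor of cytochrome P450 enzymes, and Alas1, of haem synthesis, shared a V shape. They fell by 0.86, 0.81, 0.81 and 1.19 on day 7 against day 2, and rose by 1.21, 1.38, 1.75 and 0.93 on day 21 against day 7. Macrophage markers were lowest on day 7 too. With their mean as a covariate limma called 0 of the 29 genes in either interval, with 5 and 7 at an unadjusted p under 0.05. Over all 14217 genes it then called 0 and 7, with 1715 and 1850 at an unadjusted p under 0.05.

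The clock genes themselves were also fitted with the macrophage level as a covariate. As that level did not overlap between days, a call lost or kept here does not decide its part. For Nr1d1 on day 21 against day 7 the SE went from 0.26 to 0.87. With that covariate limma called 0 of the 10 on day 21 against day 7, and 7 of all genes where it had called 5423. Nr1d1 kept its estimate at 2.11 ± 0.87 (adjusted p = 0.417). Per2 gave -0.81 ± 0.60 (adjusted p = 0.656), while Per3 (0.01 ± 0.49) and Bhlhe40 (-0.25 ± 0.51) changed sign. On day 21 against day 2, where macrophage markers differ less, Nr1d1 (2.38 ± 0.37, adjusted p = 0.00457) and Per2 (-1.26 ± 0.25, adjusted p = 0.0177) were called with the covariate and Bhlhe40 (0.78 ± 0.21, adjusted p = 0.0612) was not.

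Genes that respond to handling or to glucocorticoids, which also induce Per1, were read beside the clock genes. Of 23 immediate early genes 7 rose and 1 fell on day 7 against day 2, and 8 rose and 1 fell on day 21 against day 7. On day 21 against day 2, 13 rose and 0 fell. Over all genes 7.02% were higher and 4.41% lower, 13.7% and 24.4%, and 8.8% and 15.3%, in the same order of comparisons. Fos was at log2 11.12, 11.05 and 10.58 on day 2, 12.10, 11.91 and 11.76 on day 7 and 11.76, 11.77 and 11.68 on day 21, so high on every array. It rose on day 7 against day 2 (1.01 ± 0.17, limma adjusted p = 0.00491), as did Egr1 (0.61 ± 0.16, adjusted p = 0.0301). For 12 glucocorticoid targets the counts, to be read beside those same shares of all genes, were 1 higher and 3 lower on day 7 against day 2. On day 21 against day 7, 4 of these targets rose and 1 fell, and on day 21 against day 2, 3 rose and 1 fell. Fkbp5, one of them, fell on day 7 against day 2 (-0.83 ± 0.21, adjusted p = 0.0314), and Tsc22d3, another such target, gave 0.46 (adjusted p = 0.135). Their part in the clock gene levels was not tested.

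The spread between litters of a day was compared with the median over the genes at or above the low end. It was above that median for 2 of the 10 clock genes on day 2 and for 7 on each of days 7 and 21. The SD of the 3 litters had a median over the 10 genes of 0.11 on day 2, 0.21 on day 7 and 0.23 on day 21 (log2), beside 0.19, 0.19 and 0.20 over the 12047 genes at or above the low end. On day 2 the SD was 0.03 for Cry1, 0.07 for Per2, 0.08 for Per3, 0.09 for Per1 and 0.09 for Clock, at percentiles of 3.42 to 21.8 among genes within 1 log2 unit of the same mean level. Nr1d1 and Dbp were wider on day 2, with SDs of 0.64 and 0.30 (percentiles 98.7 and 71.4). On days 7 and 21 the SD of Nr1d1 was 0.09 and 0.15. Per2 had the widest litters later, with SDs of 0.35 on day 7 and 0.44 on day 21 (percentiles 90.7 and 93.3), a range of 1.84-fold between the litters of day 21. Dbp had SDs of 0.10 on day 7 and 0.32 on day 21. Tef varied least over all days, with a pooled SD of 0.12. No test of unequal spread was made.

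The litters did not order the genes alike on every day. On day 7 litter 3 was highest for 7 of the 10 genes and litter 2 lowest for 6. That litter 3 array also had the lowest macrophage level of all, 7.60, and the lowest median intensity of day 7, 38.8 against 50.4 and 46.7. The part of either in the litter order was not tested, and such counts were not made over all genes. On day 21 litter 2 was highest for 5 and litter 3 lowest for 6, and on day 2 litter 1 was highest for 5 and litter 2 lowest for 5. An index was formed per array from genes that peak on opposite sides of the cycle, each relative to its own mean over the 9 arrays. It is called the phase index here, though phase itself was not measured. The mean of Dbp, Tef, Nr1d1, Nr1d2 and Per3 minus that of Bmal1, Npas2, Clock and Nfil3 was -0.29, -0.15 and -0.26 on day 2, 0.29, 0.35 and -0.07 on day 7 and 0.02, -0.11 and 0.22 on day 21. The range between litters was 0.14, 0.42 and 0.33 in that order. Day 2 arrays lay below all others, whereas days 7 and 21 overlapped. Without Clock in the index day 2 overlapped them too, with litter 2 of day 2 at -0.073, litter 3 of day 7 at -0.11 and litter 2 of day 21 at -0.15. Nr1d1, in the first set, had day means of log2 6.26, 6.51 and 8.65, so its rise weighs heavily on the index of day 21. The index was not formed without Nr1d1, so the order of the days is not shown to be shared by the other genes. Within each day both gene sets put the 3 litters in the same order. The arrays lowest in the first set on each day (-0.44, -0.03 and 0.07) were also lowest in the second (-0.29, -0.38 and -0.15).

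**Figure D4:**
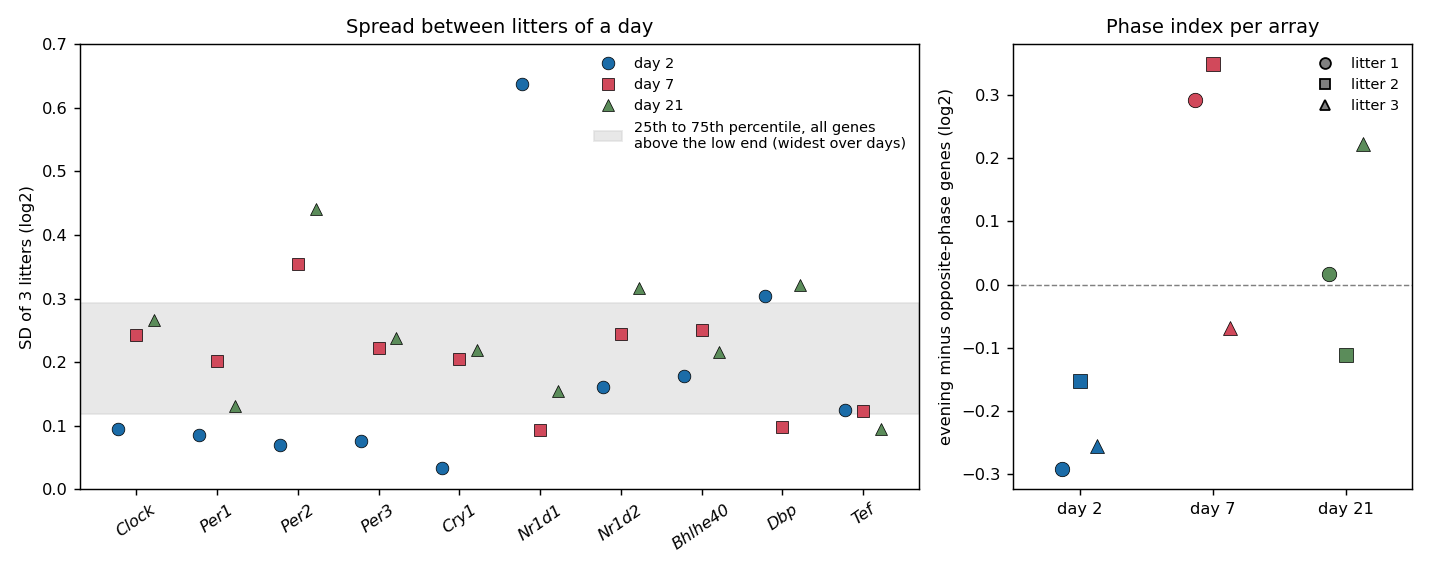
Left, SD of the 3 litters of a day (y axis, log2) for each clock gene (x axis), symbols marking days, with the grey band spanning the 25th to 75th percentiles of all genes at or above the low end. Right, the phase index per array (y axis, log2) by day (x axis), symbols marking litters. Nr1d1 on day 2 has the highest SD, 0.64, and the index spans 0.14 on day 2 and 0.42 on day 7.

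Likeness within days was measured by Pearson's r of the deviations from the day means over the 9 arrays, against 11929 named genes at or above the low end, as a description. Closest to Dbp were Trim37 (0.985), Slc34a1 (0.980), Trmt2a (0.972), Evi5l (0.965) and Tmem67 (0.957), and 39 genes exceeded 0.9. Closest to Per1 were Hadha (0.981), Mgll (0.964), Septin4 (0.963), Nr2c1 (0.960) and Uri1 (0.959), with 28 genes above 0.9. None of these 10 is in the clock lists. Some other members had high values of r within those lists, such as Clock with Nr1d2 (0.957), Cry1 with Bmal1 (0.899), Per2 with Per3 (0.895) and Cry1 with Bhlhe41 (-0.937), pairs picked after their values were seen. The highest r of Dbp with any of the other 38 clock genes was 0.704, with Prkaa1, and that of Per1 was 0.800, with Noct.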

How the data were processed

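The authors deposited probe set intensity values of 9 Affymetrix arrays, and the submitters' processing notes name RMA (affy) without a version. The values are linear, so log2 was taken. RMA equalises arrays and compresses changes of dim probe sets, yet array medians still differed. The file held 31099 probe sets, of which 57 controls were left out and 31042 tested; 20826 had 1 gene symbol, 436 several and 9780 none here, and no symbol changed through Entrez numbers. With lmFit, contrasts.fit and eBayes, limma 3.58.1 (R 4.3.3) fitted a mean per day over all 9 arrays, as two-sided tests (prior degrees of freedom 5.69, residual 6), Benjamini-Hochberg over all probe sets within a comparison, called at an adjusted p under 0.05. It was tested on simulated data. Errors are SEs from limma, and its p-values set differences between day means against the spread between litters, moderated over all probe sets. With 1 array per litter, spread between litters and technical spread cannot be told apart. The number of arrays limits precision. All 10 members are named, other clock genes where called, and for Dbp and Per1 the 5 likest genes. Also named, though not called, are Npas2, Bmal2, Rorb, Tipin, Csnk1d, Csnk1e, Prkaa1 and Tsc22d3. Cry1 had no promoter entry. Members and lists were chosen with earlier results of these data known, and the paired comparison of related genes, the genes in it, and the use of a second probe set were added after seeing the data. Alternatives were a further quantile normalization, median centring, a filter on dim probe sets, a pseudocount of 16, the mean of a gene's probe sets, litter number as a block, the macrophage covariate and leaving out each array.

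The labels do not say what litters of different days with 1 number share. Same-numbered arrays correlated in their deviations from day means at 0.41, 0.08 and 0.22 for days 7 and 2. Arrays of different number gave -0.28 to 0.06 there, so same-numbered arrays of days 7 and 2 were more alike. For days 21 and 7 same-numbered arrays gave -0.04, -0.06 and -0.24, beside -0.23 to 0.24 for different numbers. For days 21 and 2 they gave 0.05, -0.10 and 0.03, beside -0.11 to 0.10. What days 7 and 2 share by number is not known, and the main fit did not pair samples.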

Additional observations from a re-analysis of the deposited data

How the results depend on the processing

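The counts of called clock genes were 0, 4 and 3 for day 7 against day 2, day 21 against day 7 and day 21 against day 2. Leaving out 1 array gave 0 throughout, 4 to 5 and 3 throughout. The macrophage covariate gave 0 for day 21 against day 7, and called 0 of the other clock pathway genes in each of the 2 intervals, where 7 and 9 had been called. That fit cannot tell macrophage level apart from day. For the other clock pathway genes a further quantile normalization gave 13 on day 21 against day 2, where 7 had been called. Leaving out 1 array gave 4 to 7 on day 7 against day 2 (4 without day 2 replicate 2), 9 to 11 on day 21 against day 7 and 4 to 10 on day 21 against day 2 (4 without day 2 replicate 2, day 21 replicate 1 or day 21 replicate 2). With litter number as a replicate block the clock gene counts were 0, 4 and 3 and those of the other genes 7, 10 and 8. In 495 recomputed values of single clock genes 8 calls were lost and 3 gained, and 0 were called in the opposite direction. Most of these values belong to results that were not called, so they had no call to lose. With the macrophage covariate all calls of day 21 against day 7 were lost, and that of Bhlhe40 on day 21 against day 2. The others were the calls of Per2 and Per3, all lost at the next brightest probe set. Of the lost ones 2 changed sign, Per3 (0.012) and Bhlhe40 (-0.25) on day 21 against day 7 with the macrophage covariate. The gained ones, all on day 21 against day 7, were Per1 with a pseudocount of 16 (-0.38, adjusted p = 0.0288), and Dbp after quantile normalization (-0.44, adjusted p = 0.0499) and without day 21 replicate 2 (-0.69, adjusted p = 0.0317). A further 44 estimates that never passed changed sign. Centring arrays on their median moved the median change of all probe sets on day 21 against day 7 to 0.13, against 0.02 as deposited, and the share of higher calls to 48.0%, against 36.6%. On day 7 against day 2 it moved that share to 41.5%, against 61.5%. The median pooled SD between litters of the 10 genes was 0.22 as deposited and 0.18 to 0.27 under the alternatives. The causes were not tested. Members below or near the low end, such as the second Per3 probe set, are limited by signal over background.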

Other observations

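Thra, the thyroid hormone receptor alpha gene, overlaps Nr1d1 at its end in the GRCr8 gene table. It was looked up for that reason, outside the rule for named genes. Its brightest probe set was at log2 8.02, 8.23 and 8.09 on day 2, 9.13, 9.09 and 9.21 on day 7 and 7.23, 7.23 and 7.42 on day 21. It rose by 1.03 ± 0.14 on day 7 against day 2 (limma adjusted p = 0.00183, with 3 arrays a day) and fell by 1.85 ± 0.14 on day 21 against day 7 (adjusted p = 2.57e-06), where Nr1d1 rose by 2.15 ± 0.26 (adjusted p = 6.19e-05). The neighbouring genes thus moved in opposite directions in the later interval. A link between them was not tested.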
